A study of Homo sapiens with 6 samples.

Results

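The genes of nuclear transport described here are the nucleoporins named NUP with a number, the import receptors named IPO or TNPO with a number, the exportins named XPO with a number, and the importin alpha and beta genes KPNA and KPNB. They were taken by name from the platform annotation, from probe sets with exactly 1 symbol, and the brightest probe set over the 6 arrays stood for each gene. This gave 45 genes, with 133 of the 54675 probe sets. The cells, U937T:PLZF-RARa, are U937 human monocytic leukaemia cells engineered to carry the leukaemia fusion PLZF-RARa under tetracycline control. All 6 samples carry this construct and were grown with puromycin and G418. The 3 uninduced samples were kept in tetracycline, and the 3 induced samples were washed and grown for 48 h without it, so that removal of the drug and expression of the fusion go together. Tetracycline removal in cells without the fusion was not analysed here, and the labels do not say whether the line is a single clone or whether the replicates were separate cultures. The p-values therefore measure only the spread between these samples, which may be technical.

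The nuclear pore is a channel through the nuclear envelope built from many copies of a set of nucleoporins. An outer and an inner ring form its scaffold, nucleoporins rich in phenylalanine-glycine repeats fill the channel, and filaments and a basket project from its faces. Importins of the beta family carry cargo in, some through an importin alpha adaptor that reads the classical nuclear localisation signal, and exportins carry cargo out. The GTPase Ran gives the direction, since importins release and exportins bind their cargo where Ran holds GTP.

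The arrays gave log2 intensities after GCRMA, 1 array per sample, and 3 arrays a group set the precision. Arrays correlated at r = 0.9963 to 0.9976 within a group and at 0.9317 to 0.9381 between groups, across probe sets above the filter. Of the 5 probe sets of RARA, the receptor partner in the fusion, 211605_s_at rose from 1.87 ± 0.10 to 7.58 ± 0.17 (SD, n = 3 each) and 203749_s_at fell by 1.17, while the other three lay below the filter or did not pass. The probe set of ZBTB16, the gene of PLZF, fell from 5.25 ± 0.21 to 3.29 ± 0.59 (SD, n = 3 each; limma, adjusted p = 8.12e-04). Which part of the transcript each covers, and so whether it reads the fusion, was not analysed here. Of 7 measured markers of the myeloid line 6 lay above the filter on all arrays, with a summed intensity of 41200 to 46100 in uninduced and 31900 to 32500 in induced samples, and MPO lay below it. Within that sum ELANE, FUT4, AZU1 and LYZ fell by 2.80, 1.34, 1.32 and 0.85 on the log2 scale. PTPRC and CD4 rose by 1.77 and 0.24. All 5 T cell and all 3 erythroid markers lay at or below the filter on every array, as did 2 of 3 B cell markers and 5 of 6 fibroblast and epithelial markers, COL1A1 being above it. The third B cell marker, CD79B, stood at 2.81 ± 0.45 in uninduced and 4.12 ± 0.18 in induced samples (SD, n = 3 each), with no overlap but above the filter on too few arrays to be tested, and the B cell sum was 24.9 to 29.4 and then 33.4 to 38.4. The GAPDH control probe sets, a measure of RNA integrity, had a 3' signal above the 5' signal by 0.50 ± 0.03 in uninduced and 0.58 ± 0.03 in induced samples on the log2 scale (SD, n = 3 each; two-sided exact permutation p = 0.1, the smallest that 3 against 3 allows). For ACTB the log2 excess was 1.25 ± 0.08 and 1.41 ± 0.10 (exact permutation p = 0.2). The part of these shifts in the results was not tested.

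Nuclear transport genes fell more often than they rose after 48 h of induction, and the falls were mostly modest. Of the 45 genes 42 passed the filter, a log2 value above 4 on at least 3 arrays. By limma, with Benjamini-Hochberg adjustment over all 20552 probe sets tested and a threshold of 0.05, 20 fell, 6 rose and 16 did not pass. That is 47.6% lower and 14.3% higher, where 30.7% of all 9836 tested genes fell and 35.8% rose. The median log2 change was -0.18 over these genes and 0.02 over all tested genes. In all 26 genes passed, where 66.5% of all tested genes did. The ranges of both groups lay apart in 29 of the 42 genes (69.0%), as they did in 74.4% of all tested genes. Falls of at least 1 on the log2 scale were seen in 4 genes (9.52%, against 8.82% of all), the importin IPO4, the membrane nucleoporin NUP210, the exportin XPO5 and the cytoplasmic nucleoporin NUP42. The importin alpha KPNA5 was the 1 gene that rose by as much (2.38%, against 10.8% of all). In bulk RNA, a smaller share of cells with a transcript and less of it per cell cannot be told apart.

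**Figure D1:**
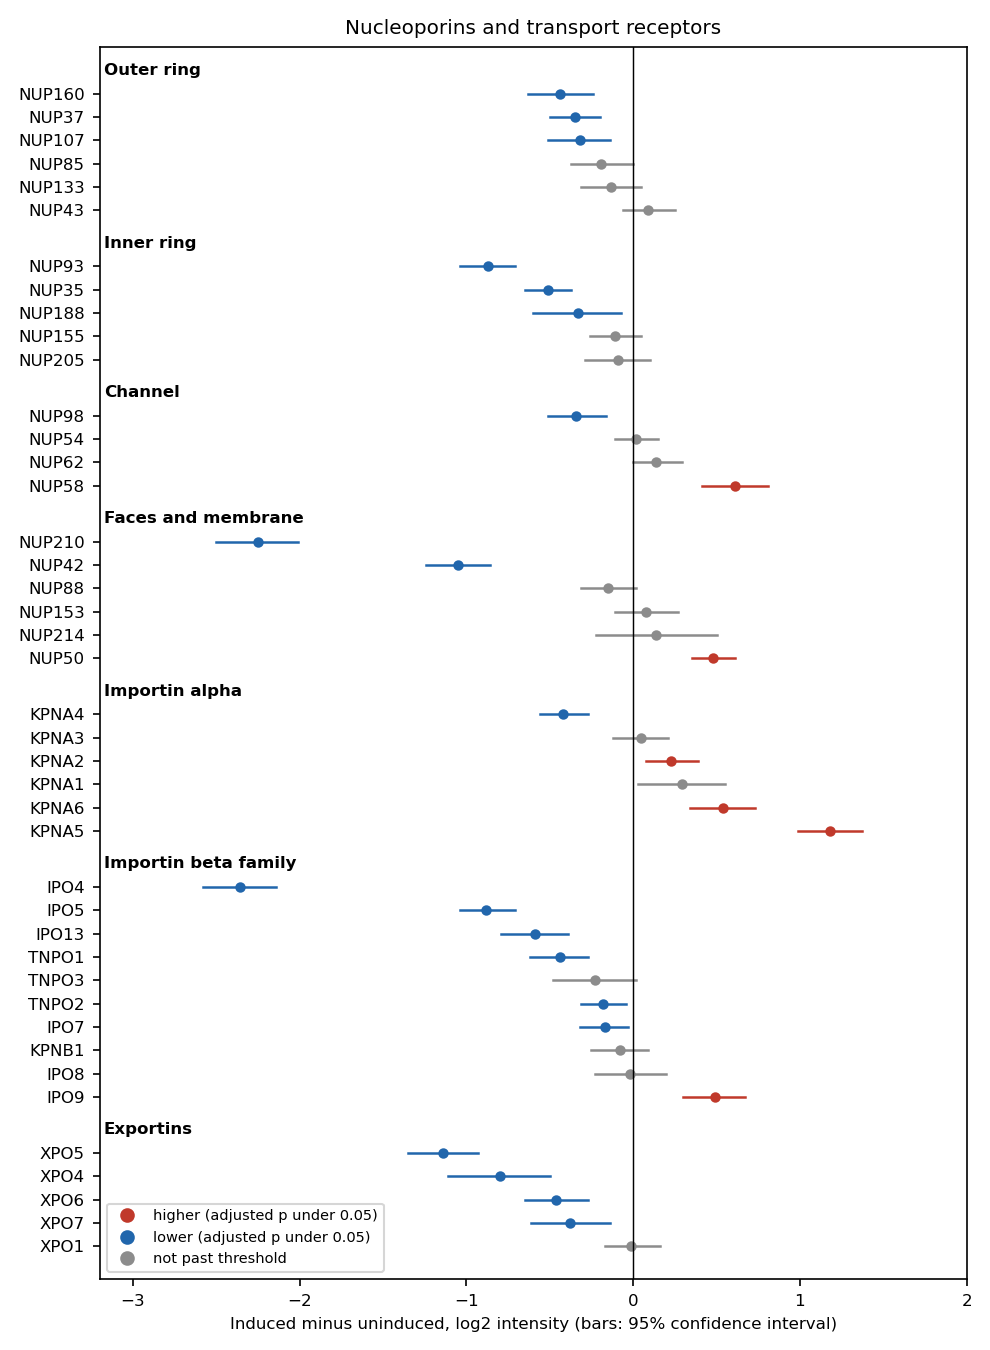
Induced minus uninduced log2 intensity of the 42 genes above the filter, by role, with the 95% confidence interval of the limma fit and colours for genes past the threshold. The exportins and the inner ring lie at or left of 0, while the importin alphas lie mostly to its right, from -0.42 for KPNA4 to 1.18 for KPNA5.

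Uninduced replicate 3 was the lowest of its group in 36 of the 42 genes, by a median of 0.09 below the group mean, and its 75th percentile over all probe sets was 6.93 against 7.12 to 7.19 on the other arrays. Without that array 22 of the genes fell and 6 rose, where 3209 of all 9774 tested genes fell and 3279 rose. Of the 26 genes that passed, 20 did so in the same direction in all of the 16 alternative settings that tested them, 16 falling and 4 rising. The exceptions were IPO7, TNPO2, NUP188, NUP160, KPNA2 and NUP50, each described below. NUP42, NUP98, XPO5 and XPO6 have only _s_at or _x_at probe sets, so the setting without such probe sets did not test them. The matching share over all tested genes was not computed.

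Promoter windows from RefSeq (GRCh38.p14), from 250 bases before to 50 after an annotated start, were found for 40 of the 45 genes. The hexamer CACGTG, an E-box that MYC and MAX among other factors are known to bind, reads the same on both strands. It was present in the windows of 7 of the 40 genes (17.5%), against 8.77% of all 27305 genes in the table and 7.26% of all windows. It was found in 4 of 18 genes that fell (IPO4, IPO7, NUP188 and TNPO2), in 1 of 5 that rose (NUP50) and in 2 of 14 that did not pass (XPO1 and KPNA3). MYC itself fell from 12.86 ± 0.07 to 9.35 ± 0.04 (SD, n = 3 each; limma, adjusted p = 2.16e-07). The ETS motif CCGGAAGT, searched on both strands, was in the windows of 7 of the 40 genes (17.5%, against 4.95% of all genes), of which IPO4, NUP160, NUP35 and XPO6 fell, NUP58 rose, and NUP54 and TNPO3 did not pass. The core palindrome of NRF1, a regulator of mitochondrial and growth genes, was in the windows of 3 of the 40 genes (7.5%, against 1.52% of all genes), namely NUP107, which fell, NUP50, which rose, and NUP62, which did not pass. In IPO4 the ETS motif lay 52 bases before the start and CACGTG 29 bases before it. The 250 bases before the start are shown for 4 genes, to set a steep fall with the E-box (IPO4, chr14:24188817-24189066 on the minus strand) beside a steep fall without it (NUP210, chr3:13420323-13420572 on the minus strand), a rise with it (NUP50, 1 of its 2 windows, chr22:45163675-45163924 on the plus strand) and a gene that did not pass with it (XPO1, 1 of its 2 windows, chr2:61537088-61537337 on the minus strand). They are written 5' to 3' on the gene's strand, with CACGTG in capitals. The shares over all genes include genes below the filter, whereas only 3 of the 40 genes lay below it. No share over expressed genes alone was computed. A match describes the letters only and shows no binding.
IPO4: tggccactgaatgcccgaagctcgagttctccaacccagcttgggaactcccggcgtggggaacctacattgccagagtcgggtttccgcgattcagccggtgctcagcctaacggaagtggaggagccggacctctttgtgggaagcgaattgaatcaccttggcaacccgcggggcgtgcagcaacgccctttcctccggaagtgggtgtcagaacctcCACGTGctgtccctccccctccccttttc
NUP210: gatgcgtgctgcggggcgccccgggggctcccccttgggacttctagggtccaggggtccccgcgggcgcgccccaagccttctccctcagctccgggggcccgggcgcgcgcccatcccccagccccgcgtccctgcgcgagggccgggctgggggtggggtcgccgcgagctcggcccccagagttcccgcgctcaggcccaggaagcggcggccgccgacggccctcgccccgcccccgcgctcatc
NUP50: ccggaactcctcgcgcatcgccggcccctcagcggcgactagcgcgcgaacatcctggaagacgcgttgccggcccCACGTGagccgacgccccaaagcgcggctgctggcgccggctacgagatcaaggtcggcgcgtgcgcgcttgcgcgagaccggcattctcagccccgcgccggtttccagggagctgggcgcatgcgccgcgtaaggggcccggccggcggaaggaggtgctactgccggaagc
XPO1: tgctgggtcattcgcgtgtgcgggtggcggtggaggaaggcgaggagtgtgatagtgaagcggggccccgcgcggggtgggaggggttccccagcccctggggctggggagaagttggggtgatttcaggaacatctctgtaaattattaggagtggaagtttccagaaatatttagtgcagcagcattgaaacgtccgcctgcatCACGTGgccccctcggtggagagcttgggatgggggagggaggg

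In the scaffold, 6 of 11 nucleoporins fell and 5 did not pass the test, where 30.7% of all tested genes fell. NUP93, which ties the inner ring to the channel, had log2 levels of 10.95, 10.98 and 10.83 in uninduced and 10.00, 10.10 and 10.05 in induced samples. It fell by 0.87 (SE 0.07; limma, adjusted p = 4.29e-05), 1.83-fold, and the groups lay well apart. NUP35, an inner ring protein that binds the membrane, stood at 9.98, 9.95 and 9.90 and then at 9.48, 9.39 and 9.42. Its fall of 0.51 (SE 0.06; adjusted p = 2.82e-04) was many times the SD of 0.04 in each group. NUP188, a large inner ring subunit, fell by 0.33 (adjusted p = 0.036), and its highest induced array (8.10) lay just below its lowest uninduced array (8.12). That call was lost without uninduced replicate 1 or 2 or induced replicate 1 or 3, where the change was -0.25 to -0.32, and with no filter or with arrays centred on the median of all probe sets, and over all alternatives its adjusted p ran from 0.00487 to 0.12. The inner ring subunits NUP155 and NUP205 changed by -0.11 and -0.09 and did not pass (adjusted p = 0.203 and 0.343).

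The outer ring moved less, with a median change of -0.25 over its 6 genes. NUP160, a subunit of the Y-shaped complex that forms this ring, went from 12.31, 12.34 and 12.32 to 12.00, 11.73 and 11.93, a fall of 0.44 (SE 0.08; limma, adjusted p = 0.00302). NUP37, a small subunit bound to NUP160, went from 11.72, 11.68 and 11.65 to 11.26, 11.38 and 11.35, a fall of 0.35 (SE 0.06; adjusted p = 0.00222). NUP107, a core subunit of the same complex, fell by 0.32 (adjusted p = 0.00968). In these 3 genes the groups did not overlap. NUP85, NUP133 and NUP43, of the same complex, changed by -0.19, -0.13 and 0.09 and did not pass (adjusted p = 0.078, 0.189 and 0.258). NUP85 passed without uninduced replicate 3, at -0.25, in a range of adjusted p from 0.00334 to 0.221 over the alternatives.

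Nucleoporins of the channel went both ways. NUP58, which lines the channel in a complex with NUP62 and NUP54, stood at 10.70, 10.90 and 10.73 in uninduced and 11.44, 11.28 and 11.44 in induced samples. It rose by 0.61 (SE 0.08; limma, adjusted p = 5.84e-04), and all 3 induced arrays were above all 3 uninduced ones. Its partners NUP62 and NUP54 changed by 0.14 and 0.02 and did not pass (adjusted p = 0.0766 and 0.827), and the 95% interval for NUP54 ran from -0.11 to 0.15. NUP98, a mobile repeat protein found on both faces, went from 9.56, 9.50 and 9.40 to 9.06, 9.23 and 9.16, a fall of 0.34 (SE 0.07; adjusted p = 0.00607) with no overlap. Its other tested probe sets did not pass. NUP62CL, a relative of NUP62, lay below the filter at 3.11 in uninduced and 3.05 in induced samples.

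The peripheral and membrane nucleoporins held the steepest falls of the pore. NUP210, a membrane glycoprotein of the pore whose level is known to vary between cell types, went from 9.88, 9.78 and 9.52 to 7.51, 7.53 and 7.38. It fell by 2.25 (SE 0.10; limma, adjusted p = 4.54e-06), or 4.76-fold, and all 5 of its probe sets fell. NUP42, a cytoplasmic nucleoporin that works with GLE1 in mRNA release, went from 9.15, 9.27 and 9.03 to 8.16, 8.07 and 8.08, a fall of 1.05 (SE 0.08; adjusted p = 3.62e-05), or 2.07-fold. In neither gene did the groups come near each other. NUP50, a protein of the nuclear face that helps to free importin alpha from its cargo, was at 11.31 ± 0.03 and then at 11.79 ± 0.02 (SD, n = 3 each), a rise of 0.48 (adjusted p = 2.72e-04). The basket protein NUP153 changed by 0.08, and the cytoplasmic partners NUP214 and NUP88 by 0.14 and -0.15. None of these 3 passed (adjusted p = 0.424, 0.445 and 0.11). NUP88 passed without uninduced replicate 3, at -0.20, in a range of adjusted p from 0.00647 to 0.285. NUP210L, a relative of NUP210 known from testis, lay below the filter at 2.37 in uninduced and 2.36 in induced samples.

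The importin alphas had a median change of 0.26, and 3 of 6 rose while 1 fell, where 35.8% of all tested genes rose and 30.7% fell. KPNA5 stood at 8.46, 8.65 and 8.43 in uninduced and 9.70, 9.62 and 9.75 in induced samples. It rose by 1.18 (SE 0.08; limma, adjusted p = 2.30e-05), or 2.26-fold, with no overlap. KPNA6 went from 10.37, 10.55 and 10.36 to 11.08, 10.91 and 10.90, a rise of 0.54 (SE 0.08; adjusted p = 0.00115), also with no overlap. With the mean over its probe sets KPNA6 rose by 0.23 (adjusted p = 0.0406, in a range from 2.88e-04 over the alternatives). KPNA5, KPNA6 and KPNA1 form 1 subfamily of these adaptors, known for carrying STAT factors. KPNA1 changed by 0.29 and just missed the threshold (adjusted p = 0.0526), with its induced arrays (8.81 to 9.17) above its uninduced arrays (8.56 to 8.79). It passed without induced replicate 3, at 0.38, in a range of adjusted p from 0.0161 to 0.352, and stood at 0.082 without _x_at and _s_at probe sets. KPNA4 and KPNA3 form another subfamily. KPNA4 fell by 0.42 (adjusted p = 9.28e-04), and KPNA3 changed by 0.05 and did not pass (adjusted p = 0.571). KPNA2, an adaptor known to be abundant in dividing cells, rose by 0.23 (adjusted p = 0.0185). That call was lost without uninduced replicate 1, induced replicate 1 or induced replicate 3, at 0.21 to 0.23, and when arrays were centred on the median of tested probe sets, at 0.15. Over the alternatives its adjusted p ran from 0.00566 to 0.098.

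In the importin beta family 6 of 10 tested genes fell and 1 rose, against 30.7% and 35.8% of all tested genes. IPO4, an importin of core histones and ribosomal proteins, had the steepest fall of all 42 genes. Its log2 levels were 9.83, 9.92 and 9.62 in uninduced and 7.44, 7.36 and 7.50 in induced samples, a fall of 2.36 (SE 0.09; limma, adjusted p = 2.60e-06), or 5.12-fold. The lowest uninduced array lay over 2 log2 units above the highest induced one. IPO4 had only 1 probe set, as did NUP42, so no other could be set beside either fall. IPO5, which also imports ribosomal proteins, went from 13.27, 13.24 and 13.11 to 12.35, 12.36 and 12.27, a fall of 0.88 (SE 0.07; adjusted p = 4.53e-05) with no overlap. IPO13, which moves cargo in both directions, fell by 0.59 (adjusted p = 8.27e-04). TNPO1, the receptor of hnRNP proteins, fell by 0.44 (adjusted p = 0.00149).

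IPO7, a further importin of ribosomal proteins, and TNPO2, a close relative of TNPO1, fell by 0.17 and 0.18 (limma, adjusted p = 0.0428 and 0.0289). The call of IPO7 was lost when any 1 of the 6 arrays was left out (-0.14 to -0.20), and that of TNPO2 when any array but uninduced replicate 3 was left out (-0.16 to -0.19). Both were also lost with arrays centred on the median of all probe sets and with the replicate block. With the mean over probe sets IPO7 fell by 0.38 and TNPO2 did not pass, at -0.16, and without _x_at and _s_at probe sets TNPO2 stood at -0.059. Over the alternatives their adjusted p ran from 6.59e-04 to 0.127 and from 0.00554 to 0.661. IPO7 is represented by its smallest fall. Its dimmer probe sets 200993_at, 200992_at and 200995_at fell by 0.33, 0.39 and 0.65 (limma, adjusted p = 0.00303, 0.00111 and 8.87e-05). IPO9, an importin of histones and actin, went against the family, from 10.39 ± 0.12 to 10.88 ± 0.03 (SD, n = 3 each), a rise of 0.49 (adjusted p = 0.00127). KPNB1, the importin beta that pairs with the importin alphas, changed by -0.08 and did not pass (adjusted p = 0.366), with a 95% interval from -0.25 to 0.09. IPO8 and TNPO3, the receptor of SR splicing factors, changed by -0.02 and -0.23 (adjusted p = 0.888 and 0.092). TNPO3 passed without uninduced replicate 3, at -0.31, in a range of adjusted p from 0.00842 to 0.254. IPO11 lay below the filter at 2.61 and 2.60.

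Of the 5 exportins 4 fell, against 30.7% of all tested genes. XPO5, the exporter of microRNA precursors, stood at 9.64, 9.76 and 9.45 in uninduced and 8.49, 8.51 and 8.43 in induced samples. It fell by 1.14 (SE 0.09; limma, adjusted p = 4.11e-05), or 2.21-fold, with no overlap. XPO4, which exports a translation factor and also imports some cargo, went from 8.33, 8.43 and 7.95 to 7.39, 7.53 and 7.38 and fell by 0.80 (SE 0.13; adjusted p = 0.00135). The spread of XPO4 was wide in uninduced samples (SD 0.25), yet its groups did not overlap. XPO6, the exporter of actin, fell by 0.46 (adjusted p = 0.00198), and XPO7, a broad exporter, by 0.38 (adjusted p = 0.0128). XPO1, the main exporter of proteins with a leucine-rich signal, had 13.61 ± 0.08 and 13.61 ± 0.05 (SD, n = 3 each), with a 95% interval of the difference from -0.17 to 0.16 (adjusted p = 0.955).

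**Figure D2:**
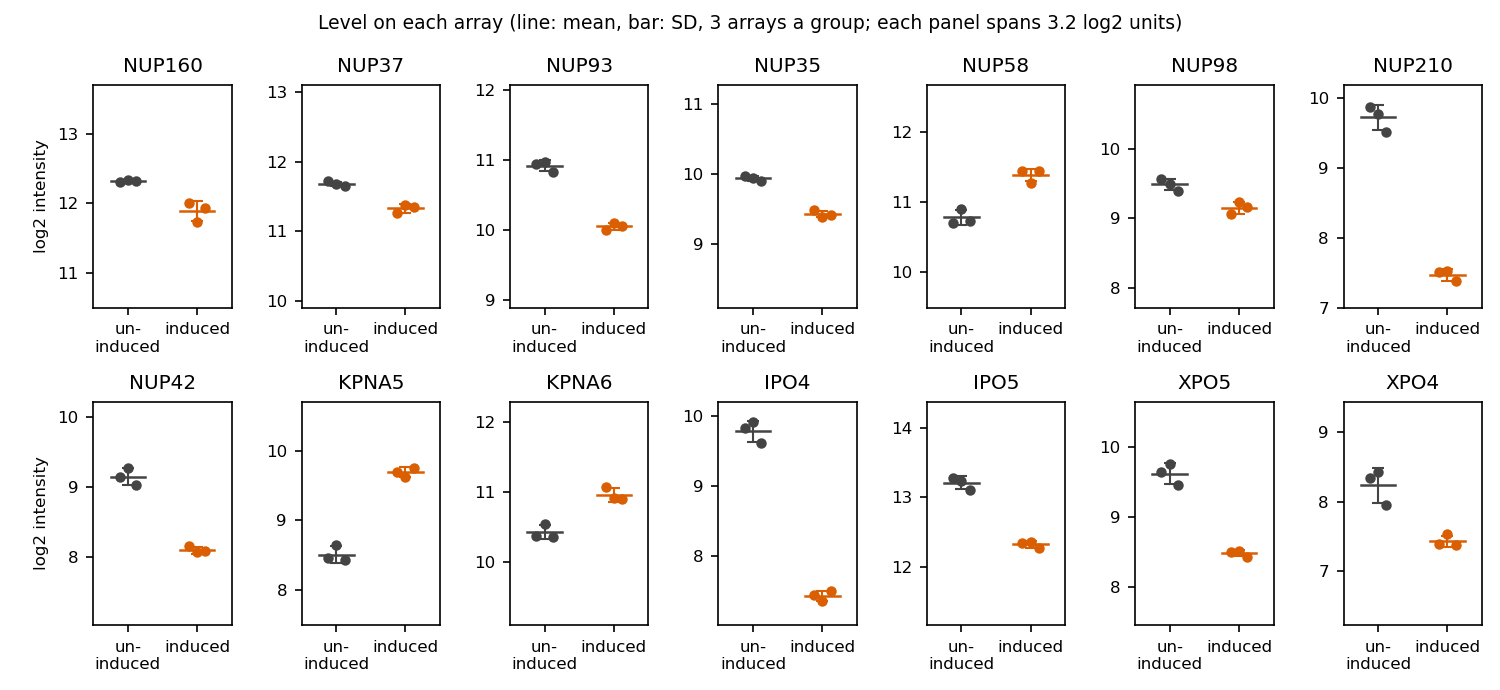
Log2 intensity on each array (points), with mean (line) and SD (bar, 3 arrays a group), for the 2 genes of each role with the largest absolute change. In all 14 panels the groups do not overlap, and only NUP58, KPNA5 and KPNA6 are higher in induced samples. The panels were picked for large changes, and the groups also do not overlap in 74.4% of all tested genes.

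A gene's probe sets did not always tell the same story. Of the 133 probe sets 108 passed the filter, of which 53 fell (27.9% of all tested probe sets did) and 18 rose (34.6% of all did). Among 28 genes with over 1 tested probe set, all fell in NUP210, IPO5, IPO7, XPO5, XPO6 and XPO7 and all rose in KPNA2, KPNA5 and NUP58. XPO5 is represented by its smallest fall: the other two probe sets, 223055_s_at and 223057_s_at, fell by 1.98 and 2.48, and with the mean over its probe sets XPO5 fell by 1.87. In IPO9, KPNA4, NUP37, NUP98, TNPO1, TNPO2 and XPO4 the brightest probe set passed while at least 1 other tested probe set did not. For NUP98 these were 203195_s_at and 203194_s_at, at -0.15 and -0.37 (limma, adjusted p = 0.0885 and 0.109). For XPO4 it was 218479_s_at at -0.57 (adjusted p = 0.0604), and for KPNA4 213567_at at 0.02 (adjusted p = 0.774). In 3 genes probe sets passed in both directions. NUP50 rose in 213682_at and 218294_s_at (0.48 and 0.42) and fell in 218295_s_at by 0.29. KPNA6 rose in 226976_at and 212103_at (0.54 and 0.43) and fell in 212102_s_at by 0.31. NUP160 fell in 212709_at by 0.44 and rose in 214962_s_at by 0.27. Each of these 3 genes also had a tested probe set that did not pass. These were 222583_s_at of NUP50 at -0.14, 212101_at of KPNA6 at 0.27 and 214963_at of NUP160 at 0.06 (limma, adjusted p = 0.13, 0.0737 and 0.385). With the mean over its probe sets NUP50 did not pass, at 0.12, and NUP160 did not pass, at -0.034 (limma, highest adjusted p over the alternatives 0.147 and 0.632, lowest 2.33e-05 and 7.35e-04).

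In 7 genes the brightest probe set did not pass while another did. The XPO1 probe set 235927_at, dim at 4.40, 4.95 and 4.39 in uninduced samples, stood at 6.33, 5.65 and 5.57 in induced samples and rose by 1.27 (limma, adjusted p = 0.0029). For NUP214, 228902_at fell by 0.85 (adjusted p = 0.00251), and for NUP153, 1559064_at fell by 0.40 (adjusted p = 0.0222). KPNB1 fell in 3 dimmer probe sets, by 0.26 to 0.31, TNPO3 in 2, by 0.26 and 0.35, and KPNA3 in 1, by 0.25. KPNA1 rose in 2, by 0.15 and 0.69. Which transcript forms these probe sets read was not analysed here.

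**Figure D3:**
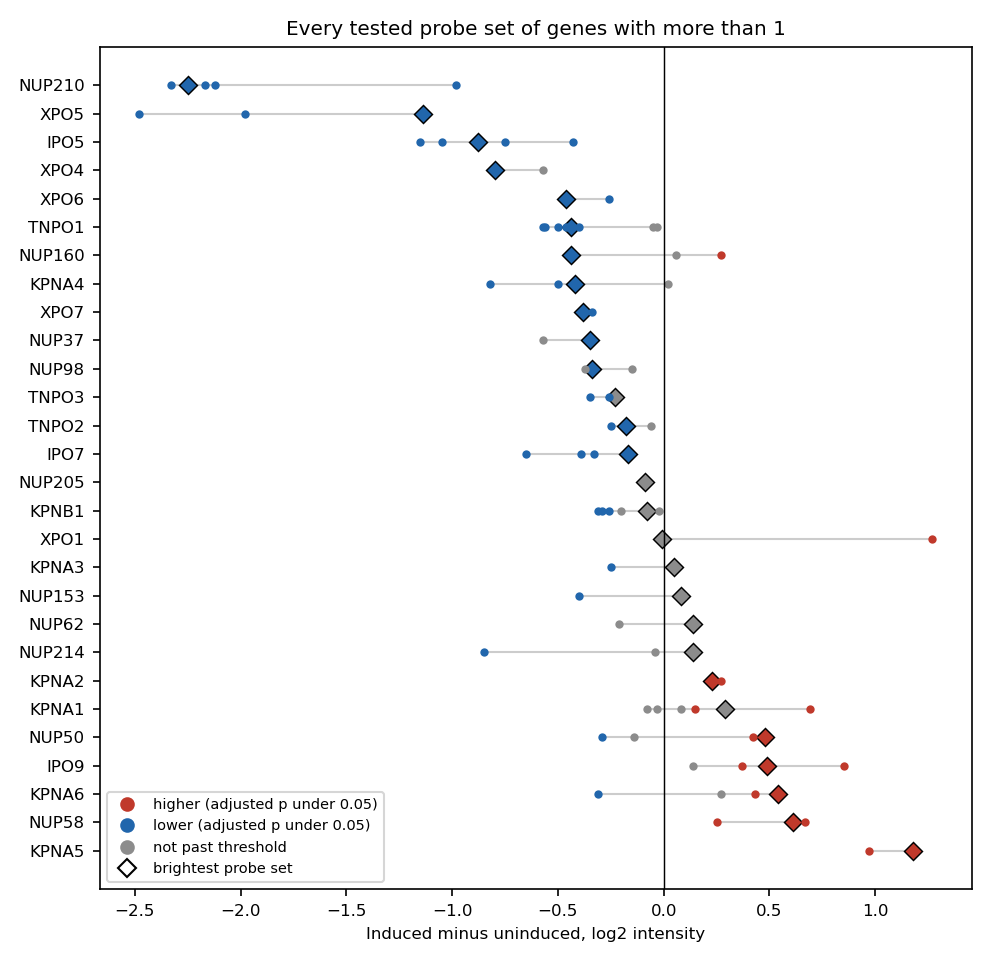
Induced minus uninduced log2 intensity of every tested probe set of the 28 genes with over 1, with the brightest as a diamond and colours for probe sets past the threshold. The probe sets of NUP210, XPO5 and IPO5 all lie left of 0, while those of NUP50, KPNA6 and NUP160 lie on both sides.

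Other genes of nuclear transport, whose names the rule does not cover, also fell more often than they rose. Of 50 listed genes 45 had a probe set naming only that gene and 42 passed the filter. Of these 23 fell (54.8%, against 30.7% of all tested genes) and 5 rose (11.9%, against 35.8%), with a median of -0.25. Without induced replicate 1 or uninduced replicate 3 the rises numbered 3, where 3100 of 9701 and 3279 of 9774 tested genes rose. In the Ran cycle 5 of 6 genes fell: RCC1, which loads Ran with GTP, by 1.54 (limma, adjusted p = 5.68e-06), RANBP1 by 0.93, RANGAP1, which triggers GTP hydrolysis, by 0.62, RANGRF by 0.56 and RAN itself by 0.24 (adjusted p = 0.0341). RCC1 stood at 11.49, 11.43 and 11.41 in uninduced and 9.95, 9.98 and 9.78 in induced samples, with no overlap.

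Among nucleoporins under other names 4 of 9 fell and 2 rose, where 30.7% of all tested genes fell and 35.8% rose. AAAS fell by 0.93, SEH1L, an outer ring subunit, by 0.89, NDC1, a membrane nucleoporin, by 0.64 and POM121C, also of the membrane, by 0.58, while the basket protein TPR rose by 0.48 and AHCTF1, which seeds pores on chromatin, by 0.32 (limma, adjusted p = 0.0035, 2.60e-05, 2.49e-04, 0.00327, 0.00189 and 0.032). Among receptors under other names 3 of 7 fell and 1 rose, to be read against the same shares. The transfer RNA exporter XPOT fell by 0.99 (adjusted p = 1.37e-05), the large ribosomal subunit adaptor NMD3 by 0.92 (adjusted p = 3.25e-05) and CSE1L, which returns importin alpha to the cytoplasm, by 0.26 (adjusted p = 0.0271). RANBP6, a relative of IPO5, rose by 0.33 (adjusted p = 0.00795). In mRNA export, against the same shares, 11 of 20 genes fell and 2 rose. The export receptor cofactors NXT1 and NXT2 fell by 1.06 and 0.85 and the THO subunit THOC5 by 0.96, while MCM3AP, a scaffold of mRNA export at the pore, rose by 1.10 (adjusted p = 2.60e-05, 2.61e-05, 3.90e-05 and 1.19e-04).

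**Figure D4:**
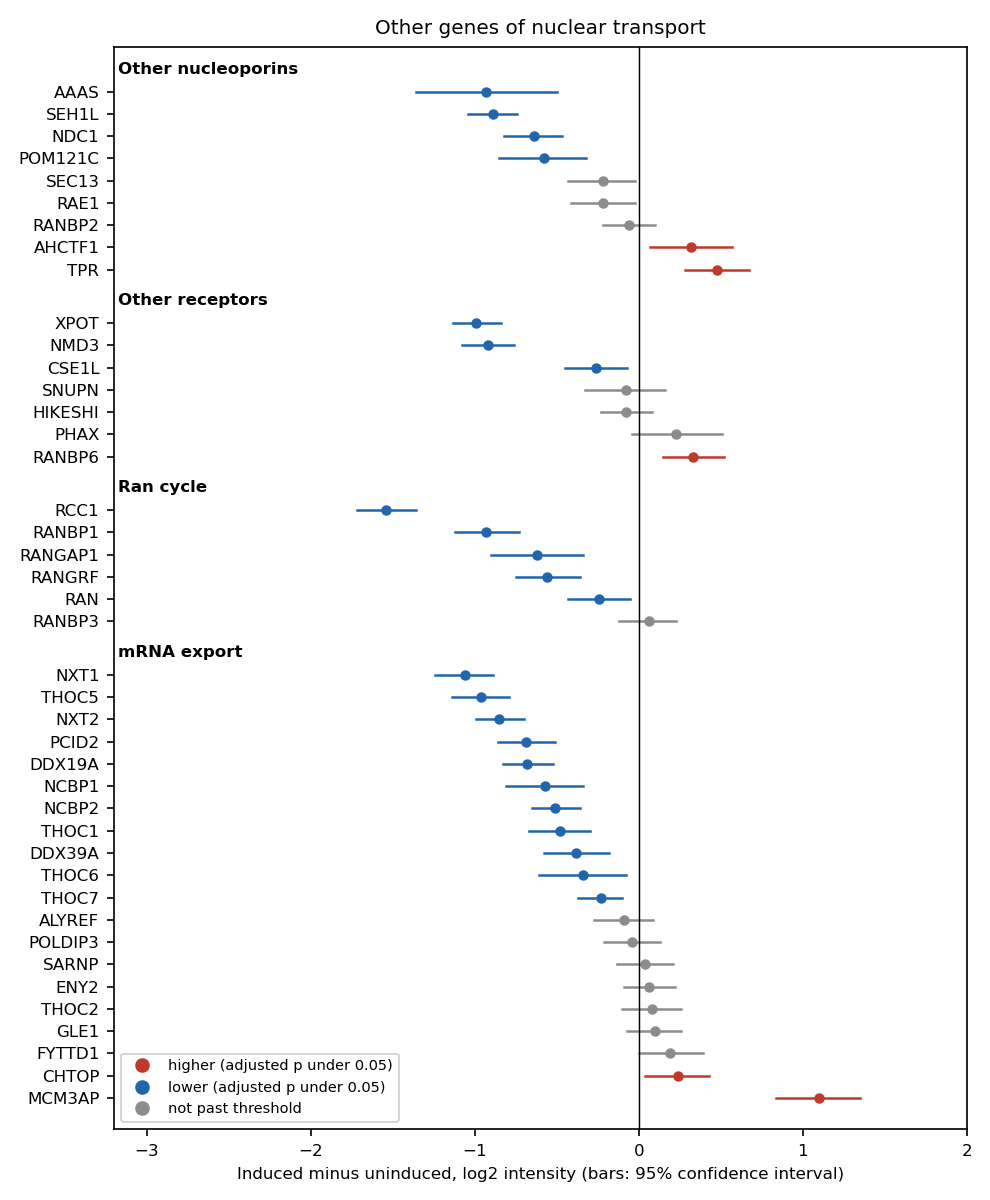
Induced minus uninduced log2 intensity of the 42 other transport genes above the filter, by list, with the 95% confidence interval of the limma fit. RCC1 lies farthest left at -1.54 and MCM3AP farthest right at 1.10.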

How the data were processed

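The deposited table holds intensities on a linear scale, for which the submitters' processing notes name GCRMA; neither its version nor whether the arrays were scaled again is given in the sources used here. GCRMA pulls dim probe sets to a shared low level. Values under 1, of which there were 6, were raised to 1 before log2 was taken. Samples were grouped by title, 3 a group. Probe sets were tested where the log2 value was above 4 on at least 3 arrays, with limma 3.58.1 (R 4.3.3) as a two-sided comparison of the groups without covariates. On simulated data for this comparison, with the spread of its 20552 probe sets, the tested fit recovered 56% of 50 changed by 0.5 on the log2 scale and 84% of 50 changed by 1, with 8 wrong calls among 178. In the data far more probe sets passed, with 7112 rises and 5733 falls. The adjusted threshold was therefore stricter in the simulation, and its shares do not give the recovery in the data.

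The genes, their roles and the 4 lists of other transport genes were chosen with earlier results of these data known, and so was the rule for named genes. By that rule every gene is named, values on every array are given for the 2 genes of each role with the largest change, and up to 4 genes past the threshold are named per list. RAN was named outside it, after its value was seen, as were TPR and AHCTF1 among others, and the probe sets. The lists hold NUTF2, NXF1, THOC3, DDX39B and ZC3H11A, which had no probe set naming only them. Protein sequences were not used here. Alternatives covered the filter, scaling, variance model, array weights, replicate number as a block, choice of probe set and each array left out. Plots were made in matplotlib 3.10.9 (Python 3.11.15).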

Additional observations from a re-analysis of the deposited data

How the results depend on the processing

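Over the 16 alternatives 5 to 8 of the nuclear transport genes rose and 17 to 26 fell, each within 1.5 times the counts given, and the median change lay between -0.15 and -0.26. The value -0.26 came with centring on the median of tested probe sets, an alternative chosen after seeing the data. Leaving out 1 array gave 5 to 6 rises and 17 to 22 falls. Over all tested genes these fits gave 3093 to 3346 rises and 2564 to 3209 falls. Over the 16 alternatives 2652 to 3588 of all tested genes rose and 2187 to 3985 fell. Falls over all genes reached 3985 of 9852 with quantile normalization, where 23 nuclear transport genes fell. With centring on tested probe sets they were 3633 of 9834, where 26 fell. Without _x_at and _s_at probe sets they were 2187 of 7309, where 17 of 33 nuclear transport genes fell. For the other transport genes the rises numbered 3 with no filter, where 3240 of all 19775 genes rose. They numbered 3 without _x_at and _s_at probe sets, where 2652 of all 7309 tested genes rose. With 1 array left out they numbered 3 to 5. The falls numbered 13 without _x_at and _s_at probe sets, where 24 genes were tested. Genes that did not pass as given changed sign in these cases, and the cause was not tested. With the mean over probe sets KPNA3 stood at -0.10, NUP153 at -0.078, NUP214 at -0.25, NUP62 at -0.032 and XPO1 at 0.63, where XPO1 passed (limma, adjusted p = 0.00302). With centring on tested probe sets KPNA3 stood at -0.032, NUP153 at -0.001 and NUP54 at -0.064. NUP214 stood at -0.042 with array weights and at -0.85 without _x_at and _s_at probe sets, where another probe set represents it and passed (adjusted p = 0.0029). With 1 array left out IPO8 ran from -0.11 to 0.038, XPO1 from -0.052 to 0.024, KPNA3 from -0.003 to 0.076 and NUP214 from -0.027 to 0.24. Deviations of same-numbered arrays from their group means correlated at -0.173, 0 and 0.18. With 3 arrays a group these values cannot tell whether the number pairs the samples. With the replicate number as a block 7 genes rose and 19 fell, where 3463 and 2963 of all 9836 tested genes did. IPO7 and TNPO2 then did not pass, and KPNA1 and TNPO3 did. KPNB1 passed in 3 alternatives, with the mean over probe sets, without _x_at and _s_at probe sets and with centring on tested probe sets; NUP62 passed with no filter and with the trended variance model. NUP133 and NUP205 passed only with centring on tested probe sets, at -0.21 and -0.17 (limma, adjusted p = 0.0366 and 0.0351). Dim probe sets near the GCRMA floor limit what could be seen in NUP62CL, NUP210L and IPO11.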
